A study of Mus musculus with 26 samples.

Results

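Regulatory T cells (Treg) whose BATF gene was deleted by a Foxp3-driven Cre were compared with Treg that carry the same Cre and an intact gene. The members are all genes of 4 poly(A) RNA-seq libraries out of the 26 of the series, 2 of BATFcKO Treg YFP and 2 of WT Treg YFP. The libraries were chosen by their labels, with earlier results of these data known. BATFcKO Treg YFP are CD4+YFP+hCD2- cells of Foxp3-IRES-YFPCre/Foxp3-IRES-hCD2 mice with Batf flox/flox alleles, and WT Treg YFP are the same sorted population of Foxp3-IRES-YFPCre/Foxp3-IRES-hCD2 mice without them. All cells were sorted fresh from the spleen and lymph nodes of C57BL6/J animals, with no age given in the labels. Both groups therefore express the Cre and hold 1 Foxp3 allele marked with YFP-Cre and 1 marked with human CD2. Foxp3 lies on the X chromosome, of which each female cell uses 1 copy, so the hCD2- gate left the cells that used the Cre-bearing copy. Such a mouse keeps Treg that use the other copy, which does not encode the Cre. Cells of other lineages do not express Foxp3 and so should keep BATF. Whether the 2 libraries of each group came from separate animals is not stated in the labels. The p-values then measure spread between libraries, which may not reflect spread between animals. That spread was estimated from all 26 libraries of the fit, not from these 4 alone. For comparison, germline BATFKO Treg (CD4+hCD2+ cells of Foxp3-IRES-hCD2.Batf-/- mice) and their WT Treg (Foxp3-IRES-hCD2) gave 2 libraries each, as did 2 sorted wild-type populations of Foxp3-IRES-hCD2 mice, effector Treg (eTreg, CCR7lo CD62Llo) and central Treg (cTreg, CCR7hi CD62Lhi CD44lo).

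BATF is a basic leucine zipper factor of the AP-1 family. It pairs with Jun proteins on AP-1 sites and, with IRF4 or IRF8, on composite AP-1/IRF elements, and it is required for several effector T cell programmes. Treg leave the thymus in a resting state that resembles naive T cells and, after stimulation, can become effector Treg, which lose homing receptors for lymph nodes and gain receptors for tissues. BATF is known for its role in that step and in Treg of non-lymphoid tissue.

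The 4 YFP libraries held 5790232 to 6813077 counts, and the tested genes took at least 99.93% of the reads of each library. Values are CPM (read counts relative to library size, with TMM scaling), fold changes are log2 values of BATFcKO over WT with an approximate SE, and a gene was called at an edgeR quasi-likelihood p below 0.05 after Benjamini-Hochberg adjustment across the 12227 genes tested. The Treg markers Foxp3, Il2ra, Ctla4, Ikzf2, Cd4, Cd3e, Cd3g and Cd3d summed to 4663 and 4758 CPM in BATFcKO, against 5124 and 5505 CPM in WT. Markers of other cells were far lower. The 10 B cell markers in the table summed to 30.3 and 23.8 CPM in BATFcKO, against 27.4 and 27.0 CPM in WT, and 11 CD8 and NK markers to 19.6 and 21.5 CPM, against 20 and 19.8 CPM. The 18 myeloid markers summed to 150 and 145 CPM in BATFcKO, against 148 and 137 CPM in WT, mostly Bst2 and Cst3, with S100a8 at 0 in all 4 libraries. The 8 erythroid and platelet markers stayed at or under 1.03 CPM, and the 13 stromal markers summed to 14.3 and 9.002 CPM in BATFcKO and 8.71 and 5.11 CPM in WT. The edgeR test called 0 of the 38 tested genes of these 5 lists, with 7 at an unadjusted p below 0.05, and DESeq2 called 1. Over all tested genes edgeR called 2.04%, and 10.7% had an unadjusted p below 0.05.

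Batf, at chr12:85686669-85709087 of mm10, read 19.5 and 15.9 CPM in the BATFcKO libraries, against 67.8 and 58.5 CPM in the WT libraries. Both deleted libraries lay below both wild-type libraries. The change was -1.84 ± 0.30 (edgeR adjusted p = 0.0019), which leaves 28.0% of the wild-type level. Reads from parts of the gene outside the floxed segment, and from cells that escaped the Cre, would both be counted here, and these sources cannot be told apart from counts per gene. In germline BATFKO Treg the level was 10.97% of WT Treg. The Batf call was lost without BATFcKO library 2 (-1.69, edgeR adjusted p = 0.0634) and in a fit of the 10 libraries of the BATF experiments alone (edgeR adjusted p = 0.0773). Foxp3, the X-linked gene that defines the lineage, read 743 and 785 CPM in BATFcKO, against 809 and 735 CPM in WT, and the groups overlapped (-0.02 ± 0.15, edgeR adjusted p = 0.989).

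Many more genes were lower than higher in BATFcKO Treg YFP, and the lower ones differed by more. The edgeR test called 249 of the tested genes (2.04%), of which 210 were lower (1.72%) and 39 higher (0.319%) in BATFcKO. All 249 had libraries that did not overlap between the groups. Over all tested genes, 22.4% had both BATFcKO libraries below both WT libraries and 19.2% had both above. Among the lower genes the median log2 change was -1.67, with 159 of 210 changed by at least 1 and 55 by at least 3 on the log2 scale. Among the 39 higher genes the median was 0.70, with 10 changed by at least 1. The median of all tested genes was -0.02. The number of calls was sensitive to single libraries. It was 93 without BATFcKO library 1, 70 without BATFcKO library 2, 161 without WT library 1 and 93 without WT library 2. In the fit of the 10 libraries of the BATF experiments it was 52, of which 49 were lower. These 10 include libraries beyond the YFP and germline BATFKO comparisons, so libraries of another group also set the spread in that fit.

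**Figure D1:**
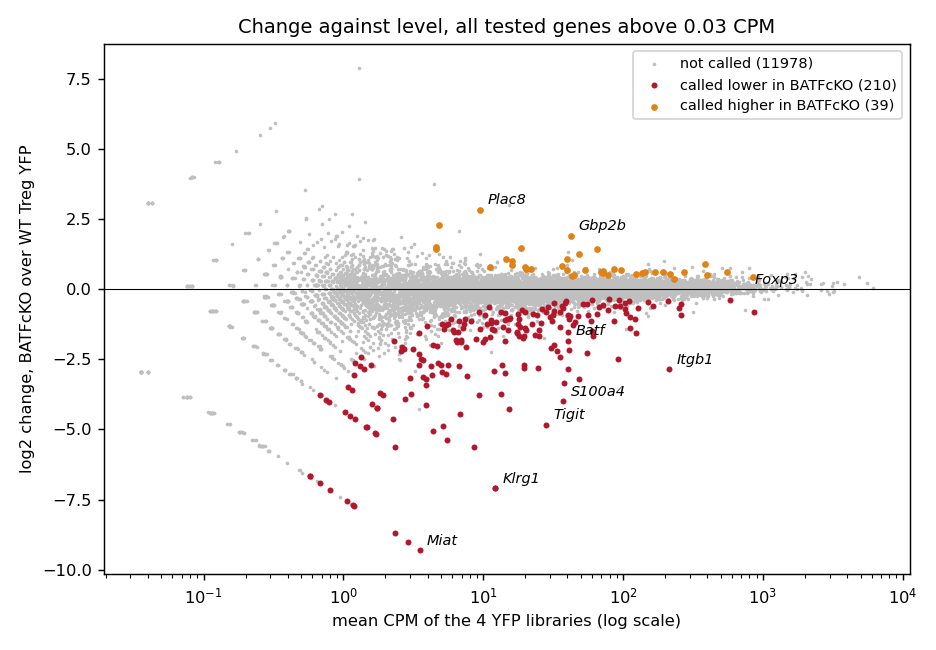
The log2 change of BATFcKO over WT Treg YFP (vertical axis) is plotted against the mean CPM of the 4 YFP libraries (horizontal log axis), 1 point a gene. The 210 genes called lower have a median of -1.67 and the 39 called higher a median of 0.70, with Plac8 the highest at 2.82. Points on the lowest diagonal have 0 reads in BATFcKO, and their fitted log2 value depends on the prior count.

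The deepest losses were in genes that WT Treg YFP express at modest levels and BATFcKO Treg YFP hardly at all. Klrg1, a co-inhibitory receptor of terminally differentiated effector cells, read 0.345 and 0 CPM in the BATFcKO libraries, against 20.4 and 28.0 CPM in the WT libraries. That is 2 reads against 318, a WT to BATFcKO ratio of 144 with a 95% exact interval of 39.6 to 1195, which covers counting error only, as do the other intervals and bounds given here. Ttc39c, at chr18:12599896-12738863, had the same pattern, with 0.172 and 0.161 CPM in BATFcKO, against 23.1 and 24.8 CPM in WT (2 reads against 317). The libraries of the 2 groups were thus separated by about the same distance for both genes.

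Miat, a long noncoding RNA gene, had 0 reads in both BATFcKO libraries, against 7.998 and 6.07 CPM in WT, and was at least 28.4-fold lower with a floor of 3 counts over the group. Slc7a10, a neutral amino acid transporter, also had 0 reads in both BATFcKO libraries, against 5.999 and 5.59 CPM in WT, at least 23.3-fold lower. Both transcripts were therefore below what this depth can show in BATFcKO, and neither can be called absent.

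Tigit, a co-inhibitory receptor through which Treg act on dendritic and T cells, read 1.72 and 2.09 CPM in BATFcKO, against 59.0 and 50.2 CPM in WT (-4.83 ± 0.64, edgeR adjusted p = 0.00025). It was the most abundant in WT of the 12 genes with the largest losses. Tox2, a nuclear factor of follicular helper cells, read 0.172 and 0.482 CPM in BATFcKO, against 21.99 and 11.8 CPM in WT (-5.63 ± 0.95, edgeR adjusted p = 0.0023). Cebpa, a bZIP factor best known from myeloid cells, read 0.517 and 0.161 CPM in BATFcKO, against 12.1 and 7.83 CPM in WT (-4.87 ± 1.06, edgeR adjusted p = 0.020). Groups did not overlap for any of them, which the rule for naming these 12 genes required. Plekhg3 (34.8-fold by count ratio, 95% exact interval 11.6 to 171), Sema6d, a semaphorin (-4.44 ± 0.58), and Alox8, a lipoxygenase (-4.11 ± 0.68), completed the losses outside the chemokine receptors. The calls of Klrg1, Ttc39c, Miat, Tigit, Plekhg3, Sema6d and Alox8 held when any 1 YFP library was left out. Those of Slc7a10 and Tox2 did not hold without BATFcKO library 1 (edgeR adjusted p 0.0683 and 0.0584) or 2 (0.0804 and 0.0550), and that of Cebpa was lost without any 1 of the 4 (0.0519 to 0.236). In the 10-library fit Slc7a10, Cebpa and Alox8 were not called (edgeR adjusted p 0.0579 to 0.104), nor was Cebpa with no filter on low counts (0.110).

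**Figure D2:**
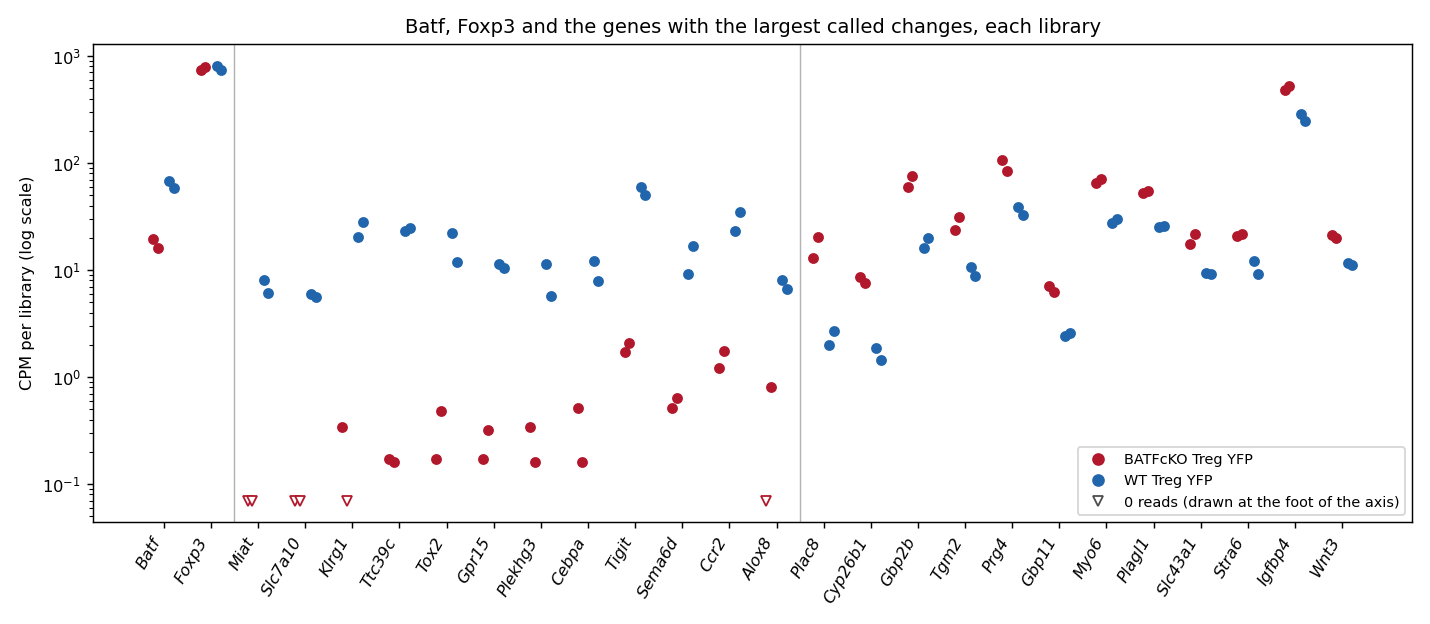
CPM of each library (vertical log axis) for Batf, Foxp3, the 12 named genes with the largest called losses and the 12 with the largest called gains. Red points are the 2 BATFcKO libraries and blue points the 2 WT libraries of each gene, and open triangles at the foot mark 0 reads. The groups overlap for Foxp3, and the losses and gains shown were selected to have groups that do not overlap. Gaps are far wider for the losses, such as Tigit with 1.72 and 2.09 CPM in BATFcKO against 59.0 and 50.2 CPM in WT, than for the gains.

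Several receptors that guide T cells into tissues and inflamed sites were lower. Of 19 chemokine receptor genes tested, 8 (42.1%) were called lower and 0 higher, against 1.72% lower over all tested genes. The median change of the list was -1.34, and 5 members had positive changes. Gpr15, a homing receptor for the large intestine, read 0.172 and 0.322 CPM in BATFcKO, against 11.3 and 10.4 CPM in WT, a WT to BATFcKO count ratio of 43.5 (95% exact interval 14.6 to 214). Ccr4, which binds the chemokines CCL17 and CCL22 and marks skin-homing and activated Treg, read 8.27 and 5.47 CPM in BATFcKO, against 56.4 and 81.8 CPM in WT (-3.33 ± 0.34, edgeR adjusted p = 1.2e-05). Ccr2, a receptor for monocyte chemoattractant proteins, read 1.21 and 1.77 CPM in BATFcKO, against 23.3 and 34.7 CPM in WT (-4.26 ± 0.70, edgeR adjusted p = 0.0020). Every BATFcKO library lay below every WT library for these 3 genes.

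The type 1 receptor Cxcr3 (-1.98 ± 0.30), Cxcr6 (-3.03 ± 0.49) and Ccr8 (-1.34 ± 0.29), a receptor of tissue and tumour Treg, were called as well. Ccr10, a skin and mucosal homing receptor named after its values were seen, was called too and had 0 reads in both BATFcKO libraries, against 4.71 and 4.63 CPM in WT, at least 18.7-fold lower. The lymph node homing receptor Ccr7, also chosen after its values were seen, was not called, with 401 and 370 CPM in BATFcKO, against 305 and 279 CPM in WT (0.40 ± 0.33, edgeR adjusted p = 0.783). The calls of Gpr15, Ccr4 and Cxcr3 held without any 1 YFP library. Without BATFcKO library 2 the calls of Ccr2, Ccr8, Ccr10 and Cxcr6 were lost (edgeR adjusted p 0.0502 to 0.284), those of Ccr2 and Ccr10 also without BATFcKO library 1 (0.0516 and 0.0980) and that of Ccr8 also without either WT library (0.104 and 0.0698). In the 10-library fit Ccr2, Ccr8, Ccr10 and Cxcr3 were not called (0.0698 to 0.211).

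A minority of adhesion molecules were also lower. Of 17 integrin and adhesion genes tested, 4 (23.5%) were called lower and 0 higher, against 1.72% lower over all tested genes, with a list median of -0.24 and 5 positive changes. Itgb1, the beta1 subunit shared by receptors for collagen, laminin and fibronectin, had the smallest p of any member named here and read 52.0 and 51.8 CPM in BATFcKO, against 336 and 417 CPM in WT (-2.86 ± 0.15, edgeR adjusted p = 1.4e-09). Itgae, whose product CD103 pairs with the beta7 integrin to bind epithelial E-cadherin, read 24.98 and 30.9 CPM in BATFcKO, against 141 and 169 CPM in WT (-2.47 ± 0.20, edgeR adjusted p = 5.5e-07). The 2 groups of libraries lay more than 4-fold apart for both genes. The collagen receptor subunit Itga2 changed by -3.13 ± 0.37 and the hyaluronan receptor Cd44, a marker of activated T cells, by -1.05 ± 0.14. Cd44 was not called in the 10-library fit (edgeR adjusted p = 0.0767).

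The list of effector Treg genes had the largest share of calls of the 24 lists. Of 39 tested, 22 (56.4%) were called lower and 0 higher, against 1.72% lower over all tested genes, and the list median was -1.41. Among them were the calcium-binding proteins S100a4 (4.997 and 3.86 CPM in BATFcKO, against 62.0 and 78.4 CPM in WT; -3.99 ± 0.30) and S100a6 (-2.81 ± 0.25). They also held Icos, the costimulatory receptor on which effector Treg depend (63.8 and 60.6 CPM in BATFcKO, against 165 and 206 CPM in WT; -1.57 ± 0.17), and Rora, a nuclear receptor of tissue Treg and Th17 cells (19.1 and 18.7 CPM, against 89.0 and 93.9 CPM; -2.27 ± 0.20). Each of these 4 genes had non-overlapping groups and kept its call without any 1 YFP library. Prdm1, which encodes the effector regulator Blimp-1 and was chosen after its values were seen, read 8.44 and 9.002 CPM in BATFcKO, against 27.1 and 24.8 CPM in WT (-1.57 ± 0.30, edgeR adjusted p = 0.0072). Its call was lost without BATFcKO library 1, BATFcKO library 2 or WT library 1 (edgeR adjusted p 0.0518 to 0.0980) and in the 10-library fit (0.0773). The count of called list members was 15 to 18 when 1 YFP library was left out and 12 in the 10-library fit.

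Of the 17 effector members that did not pass, 2 had positive changes. Irf4, which encodes the partner of BATF on composite elements, was one of these and was picked after its values were seen, with 142 and 127 CPM in BATFcKO, against 107 and 107 CPM in WT (0.32 ± 0.13, edgeR adjusted p = 0.285). Maf, a bZIP factor of effector Treg chosen in the same way, read 108 and 97.9 CPM in BATFcKO, against 194 and 203 CPM in WT, and just missed the threshold (-0.95 ± 0.25, edgeR adjusted p = 0.0625).

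Receptors for signals between cells and molecules of suppression changed in part. The share called lower over all tested genes was 1.72%. Of 20 co-inhibitory and costimulatory receptors, 6 were called lower and 0 higher (median -0.49), and of 17 suppressor molecules 3 were called lower and 0 higher (median -0.76). Tigit and Pdcd1, which encodes the inhibitory receptor PD-1, are in both lists. Pdcd1 read 27.4 and 35.0 CPM in BATFcKO, against 89.4 and 87.8 CPM in WT (-1.503 ± 0.35, edgeR adjusted p = 0.026). Its groups did not overlap, but the call was lost without any 1 of the 4 libraries (edgeR adjusted p 0.107 to 0.288), with no filter on low counts (0.133) and in the 10-library fit (0.167). Penk, the precursor of enkephalin peptides, read 8.27 and 13.8 CPM in BATFcKO, against 56.8 and 62.5 CPM in WT (-2.42 ± 0.28, edgeR adjusted p = 5.7e-05). Tnfrsf8, which encodes CD30, changed by -2.62 ± 0.50 and was lost without BATFcKO library 1 (edgeR adjusted p = 0.155), without WT library 2 (0.0996) and in the 10-library fit (0.175). Of the 17 suppressor molecules, 13 had negative changes and 4 positive ones. Both BATFcKO libraries lay below both WT libraries for 9 of the 17 and above for 1, against 22.4% and 19.2% of all tested genes. The suppressor genes Ctla4, Entpd1 and Il10, chosen after their values were seen, were not called and do not stand for the list. Ctla4 read 432 and 296 CPM in BATFcKO, against 463 and 383 CPM in WT (-0.22 ± 0.19, edgeR adjusted p = 0.806), and the ectonucleotidase gene Entpd1 changed by 0.04 ± 0.19. Il10 read 9.99 and 2.73 CPM in BATFcKO, against 15.6 and 5.43 CPM in WT, so its groups overlapped.

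Among 26 interleukin receptor genes, 3 (11.5%) were called lower and 0 higher (median -0.10), against 1.72% lower over all tested genes. The paired subunits of the IL-18 receptor were both called. Il18rap read 1.55 and 2.09 CPM in BATFcKO, against 21.6 and 28.0 CPM in WT (-3.75 ± 0.25, edgeR adjusted p = 9.1e-08). Il18r1 read 60.7 and 64.1 CPM in BATFcKO, against 136 and 191 CPM in WT (-1.39 ± 0.19, edgeR adjusted p = 0.00038). Neither gene had overlapping groups. Il9r changed by -2.72 ± 0.45 and lost its call without BATFcKO library 2 (edgeR adjusted p = 0.0637) and in the 10-library fit (0.0731). Il1rl1, which encodes the IL-33 receptor ST2 of tissue Treg and was picked after its values were seen, was not called, with 20.9 and 27.0 CPM in BATFcKO, against 35.0 and 54.0 CPM in WT (-0.89 ± 0.37, edgeR adjusted p = 0.352).

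The losses were spread over the genes of several helper programmes that Treg can share. Among all tested genes, 1.72% were called lower. Lower calls numbered 5 of 14 Th1 genes (median -0.39), 3 of 11 Th2 genes (median -0.98), 2 of 10 Th17 genes (median -0.93) and 3 of 12 follicular helper genes (median -0.72), with 0 higher calls in each list. Most of these are receptors named above. The Th1 calls also held Ccl5, a chemokine (-2.94 ± 0.50), whose call was lost without BATFcKO library 2 (edgeR adjusted p = 0.0711) and in the 10-library fit (0.0975). The Th17 calls were Rora and Ahr, a ligand-activated receptor (-1.22 ± 0.20), which was not called without BATFcKO library 1 (0.0501). The lineage factors Tbx21, Gata3 and Bcl6, chosen after their values were seen, were not called. Tbx21 changed by -0.41 ± 0.38, Gata3 by -0.31 ± 0.15 and Bcl6 by -0.65 ± 0.19 (edgeR adjusted p 0.822, 0.459 and 0.0886).

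Most genes of Treg identity did not pass the test. Of 19 core genes, 2 (10.5%) were called lower and 0 higher, with a median of -0.06, against 1.72% lower over all tested genes. The list was thus not free of losses. Both BATFcKO libraries lay below both WT libraries for 8 core genes and above for 5, against 22.4% and 19.2% of all tested genes. The called genes were Cd83, an activation-associated surface protein (27.4 and 30.4 CPM in BATFcKO, against 88.1 and 97.1 CPM in WT, change -1.68 ± 0.23), and Nrp1, which encodes neuropilin-1 (174 and 186 CPM, against 306 and 378 CPM, change -0.93 ± 0.17). The Nrp1 call was lost without either BATFcKO library (edgeR adjusted p 0.0980 and 0.0681), without WT library 2 (0.120) and in the 10-library fit (0.102). Of core genes chosen after their values were seen, Il2ra, the high-affinity IL-2 receptor chain, changed by 0.09 ± 0.22 and Ikzf2, which encodes Helios, by -0.74 ± 0.24 (edgeR adjusted p 0.945 and 0.174). Helios values were 514 and 596 CPM in BATFcKO, against 792 and 1055 CPM in WT. Of 5 genes of conventional T cells, Cd40lg, which encodes CD40 ligand, alone was called (14.3 and 13.98 CPM in BATFcKO, against 24.1 and 23.0 CPM in WT; -0.74 ± 0.17; list median -0.66). Its call was lost without any 1 of the 4 libraries (edgeR adjusted p 0.108 to 0.200) and in the 10-library fit (0.270). Of 11 amino acid transporters, Slc7a10 alone was called (list median -0.01).

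**Figure D3:**
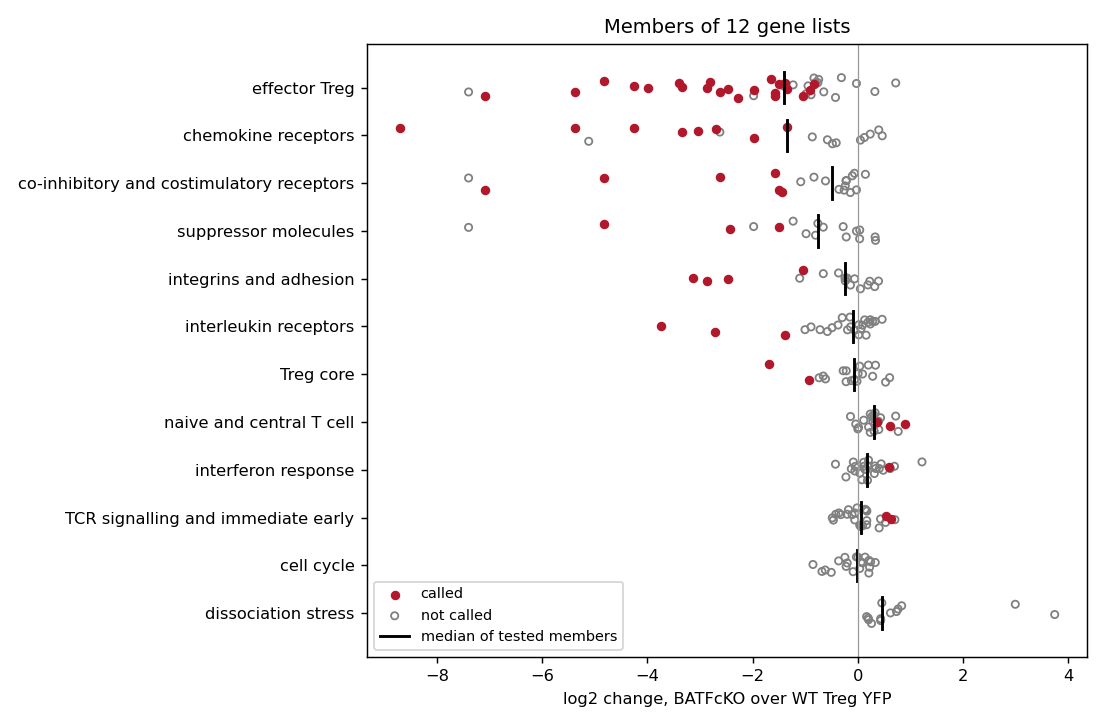
Each point is a tested member of 1 of 12 gene lists, placed by its log2 change of BATFcKO over WT Treg YFP (horizontal axis). Filled points passed the edgeR test, and black bars are list medians. The effector Treg and chemokine receptor lists have medians of -1.41 and -1.34, and the naive and central T cell list has a median of 0.31.

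Genes of resting T cells lay on the other side of 0 by small amounts. Of 23 naive and central T cell genes, 21 had positive changes, 3 were called higher and 0 lower, and the median was 0.31. Beside this, 0.319% of all tested genes were called higher, and 5734 of the 12227 had positive changes. Igfbp4, a binding protein of insulin-like growth factors, read 478 and 520 CPM in BATFcKO, against 288 and 247 CPM in WT (0.90 ± 0.17, edgeR adjusted p = 0.0060). Treml2 read 297 and 365 CPM in BATFcKO, against 211 and 221 CPM in WT (0.62 ± 0.14), and Pecam1, an adhesion molecule of recent thymic emigrants and resting T cells, changed by 0.37 ± 0.09. All 3 had groups that did not overlap. Without WT library 1 the call of Igfbp4 alone was kept (1 of 3), without BATFcKO library 1 those of Igfbp4 and Treml2 (lost calls 0.154 to 0.255), and without BATFcKO library 2 or WT library 2 none of the 3 (edgeR adjusted p 0.0753 to 0.305), nor in the 10-library fit (0.158 to 0.445). Without the filter on low counts, and with the 4 YFP libraries alone, the call of Pecam1 was lost (0.137 and 0.0683). Tcf7, which encodes the resting-state factor TCF1 and was picked after its values were seen, was flat, with 812 and 762 CPM in BATFcKO, against 818 and 755 CPM in WT.

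Genes higher in BATFcKO were fewer and more varied. Plac8, a small cysteine-rich protein of lymphoid and myeloid cells, had the largest gain, with 12.9 and 20.3 CPM in BATFcKO, against 2.0 and 2.72 CPM in WT (2.82 ± 0.46, edgeR adjusted p = 0.0017). Gbp2b, an interferon-inducible guanylate-binding protein, read 59.96 and 74.8 CPM in BATFcKO, against 16 and 19.96 CPM in WT (1.91 ± 0.23, edgeR adjusted p = 9.9e-05). Its relative Gbp11 read 7.06 and 6.27 CPM, against 2.43 and 2.56 CPM (1.42 ± 0.24). Reads can be shared between the Gbp paralogs, so the split of counts among them is uncertain. The retinoic acid hydroxylase Cyp26b1 read 8.61 and 7.56 CPM in BATFcKO, against 1.86 and 1.44 CPM in WT (2.28 ± 0.52), and Stra6, a membrane receptor for the retinol carrier protein, 20.7 and 21.9 CPM, against 12.1 and 9.26 CPM (0.99 ± 0.24). The transglutaminase Tgm2 (1.48 ± 0.27), the secreted proteoglycan Prg4 (1.42 ± 0.32), the unconventional myosin Myo6 (1.26 ± 0.27), the zinc finger factor Plagl1 (1.09 ± 0.25), the amino acid transporter Slc43a1 (1.07 ± 0.27) and the ligand Wnt3 (0.86 ± 0.22) were also higher.

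Of these gains, the calls of Plac8, Gbp2b and Gbp11 held without any 1 YFP library. The calls of Cyp26b1, Stra6, Prg4, Myo6, Plagl1, Slc43a1 and Wnt3 were each lost without any 1 of the 4 YFP libraries (edgeR adjusted p 0.0681 to 0.415), and that of Tgm2 without BATFcKO library 2 (0.0961) or WT library 2 (0.101). In the 10-library fit Plac8, Gbp2b and Plagl1 alone of these 11 gains were called (edgeR adjusted p of the others 0.0783 to 0.497), and Prg4 was not called with no filter on low counts (0.0861).

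Of 25 interferon response genes, 1 (4.0%) was called higher and 0 lower, with a median of 0.18, against 0.319% higher over all tested genes. The called gene was Gbp2, with 143 and 183 CPM in BATFcKO, against 97.4 and 120 CPM in WT (0.59 ± 0.13, edgeR adjusted p = 0.026). The Gbp2 call was lost without BATFcKO library 2 (0.381), without WT library 1 (0.275) and in the 10-library fit (0.295). Of 25 T cell receptor signalling and immediate early genes, 2 (8.0%) were called higher and 0 lower (median 0.06), against 0.319% higher over all tested genes. They were the phosphatase Dusp2 (706 and 641 CPM in BATFcKO, against 477 and 397.4 CPM in WT, change 0.62 ± 0.13) and Myc (245 and 265 CPM, against 173 and 176 CPM, change 0.54 ± 0.11). Dusp2 was lost without either BATFcKO library (edgeR adjusted p 0.176 and 0.0555) or WT library 2 (0.269), and Myc without any 1 of the 4 (0.0528 to 0.136). Both were lost in the 10-library fit (0.244 and 0.251). Of 20 cell cycle genes edgeR called 0, with 1 at an unadjusted p below 0.05, and DESeq2 called 0 (median -0.01). Over all tested genes edgeR called 2.04%, and 10.7% had an unadjusted p below 0.05. At that share 0 calls in a list this short do not show a lack of change. Immediate early genes also differed between libraries of 1 group. Jun, picked after its values were seen, read 1327 and 688 CPM in BATFcKO, against 821 and 364 CPM in WT. All 13 genes of a dissociation stress list had positive changes with a median of 0.46. Of these 13 genes edgeR called 0, with 0 at an unadjusted p below 0.05, and DESeq2 called 0, beside the same 2.04% over all tested genes. The widest were the heat shock genes Hspa1a (11.4 and 5.14 CPM in BATFcKO, against 0.714 and 0.479 CPM in WT) and Hspa1b (33.6 and 20.6 CPM, against 3.999 and 2.72 CPM), and the part of cell handling in the gains was not tested.

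BATF acts from AP-1 sites, and 4 promoters are shown to let the letters of such sites be seen beside the values of their genes, which were chosen for their matches. They run 250 bases before to 50 after a RefSeq start, on GRCm38.p6, 5′ to 3′ on the strand of the gene. Capitals mark TGANTCA on either strand, and the whole match where this is part of a composite AP-1/IRF element, which in its adjacent form is GAAA directly before TGANTCA and in its spaced form TTTC, 4 further bases and TGANTCA. Ccr4 holds the adjacent form, at chr9:114496495-114496794 on the minus strand. Cst7, the protease inhibitor cystatin F, holds the spaced form in reverse, at chr2:150570165-150570464 on the plus strand. S100a11 holds TGANTCA in 2 places, at chr3:93520246-93520545 on the plus strand, and Gbp2, a gene called higher, holds it in 1 place, at chr3:142620413-142620712 on the plus strand.
Ccr4: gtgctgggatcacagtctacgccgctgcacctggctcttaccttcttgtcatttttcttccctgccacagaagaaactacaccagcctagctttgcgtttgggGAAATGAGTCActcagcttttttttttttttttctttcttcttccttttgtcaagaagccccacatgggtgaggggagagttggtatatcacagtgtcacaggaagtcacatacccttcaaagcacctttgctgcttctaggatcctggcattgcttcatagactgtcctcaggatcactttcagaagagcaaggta
Cst7: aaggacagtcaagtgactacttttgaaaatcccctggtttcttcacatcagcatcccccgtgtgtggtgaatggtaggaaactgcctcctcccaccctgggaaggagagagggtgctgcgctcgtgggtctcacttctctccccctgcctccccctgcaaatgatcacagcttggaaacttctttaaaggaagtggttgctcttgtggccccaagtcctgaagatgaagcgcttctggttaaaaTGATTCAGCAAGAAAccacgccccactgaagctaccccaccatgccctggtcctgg
S100a11: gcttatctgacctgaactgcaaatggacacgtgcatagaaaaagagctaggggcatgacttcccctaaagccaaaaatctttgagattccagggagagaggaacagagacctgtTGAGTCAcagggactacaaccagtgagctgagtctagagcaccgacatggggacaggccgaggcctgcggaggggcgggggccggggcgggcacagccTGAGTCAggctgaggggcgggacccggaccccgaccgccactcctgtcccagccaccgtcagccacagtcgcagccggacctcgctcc
Gbp2: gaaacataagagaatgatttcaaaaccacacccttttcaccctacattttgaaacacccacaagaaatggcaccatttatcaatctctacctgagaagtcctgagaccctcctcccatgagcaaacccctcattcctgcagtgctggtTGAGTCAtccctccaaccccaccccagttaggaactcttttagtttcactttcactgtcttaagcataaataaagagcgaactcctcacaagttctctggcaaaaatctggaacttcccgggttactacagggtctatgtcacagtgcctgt

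Cst7 read 10.3 and 12.7 CPM in BATFcKO, against 43.3 and 56.1 CPM in WT (-2.10 ± 0.32, edgeR adjusted p = 0.0011), and S100a11 read 4.83 and 5.63 CPM, against 16.7 and 17.9 CPM (-1.72 ± 0.28, edgeR adjusted p = 0.0019). Both calls held without any 1 YFP library but not in the 10-library fit (edgeR adjusted p 0.0652 and 0.0579). Of the 210 lower genes other than Batf, 158 had a RefSeq promoter in the table, and 22 of these (13.9%) held TGANTCA at any listed start. Of the 39 higher genes 29 had one, and 5 (17.2%) held the motif, as did 548 of the 9339 tested genes with a promoter (5.87%). The adjacent composite was in the promoter of 1 lower gene, Ccr4, and of 9 tested genes, and the spaced one in that of 1 lower gene, Cst7, and of 7 tested genes. Most called genes thus had no such letters in this window, which says nothing of sites farther away.

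The genes lower in BATFcKO were, with 3 exceptions, genes that separate effector from central Treg in wild-type mice. Of the 210 lower genes, 207 (98.6%) were called higher in eTreg than in cTreg, libraries that share nothing with the YFP comparison, and 0 were called lower. Over all tested genes 31.1% were called, 18.8% higher and 12.3% lower in eTreg. The median eTreg over cTreg log2 difference of the 210 was 3.39, and all 210 were positive. Tigit, for example, read 208 and 295 CPM in eTreg, against 1.03 and 0.991 CPM in cTreg, and Itgb1 796 and 844 CPM in eTreg, against 103 and 116 CPM in cTreg. The 3 exceptions, Kcna2, which encodes a voltage-gated potassium channel, L3mbtl3 and Gm2a, had positive differences that were not called, and each lost its BATFcKO call without any 1 of the 4 YFP libraries (edgeR adjusted p 0.0518 to 0.351). Fewer effector cells among the sorted Treg and less RNA of these genes per cell cannot be told apart in such bulk samples.

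The reverse was less complete. Of the 39 higher genes, 26 (66.7%) were called lower in eTreg than in cTreg and 7 were not called, with a median difference of -1.03. Igfbp4, for example, read 4.40 and 3.65 CPM in eTreg, against 408 and 501 CPM in cTreg. The remaining 6 were called higher both in BATFcKO and in eTreg, and Plac8, Gbp2b, Slc43a1 and Xdh, which encodes xanthine dehydrogenase, are among them. Gbp2b read 40.9 and 27.7 CPM in eTreg, against 5.27 and 5.55 CPM in cTreg (2.66, edgeR adjusted p = 1.8e-07). Its gain in BATFcKO thus ran against the direction of most other genes, and the same held for Xdh, with 107 and 109 CPM in BATFcKO, against 64.7 and 65.5 CPM in WT (0.73 ± 0.11, edgeR adjusted p = 0.0011; 0.102 in the 10-library fit).

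**Figure D4:**
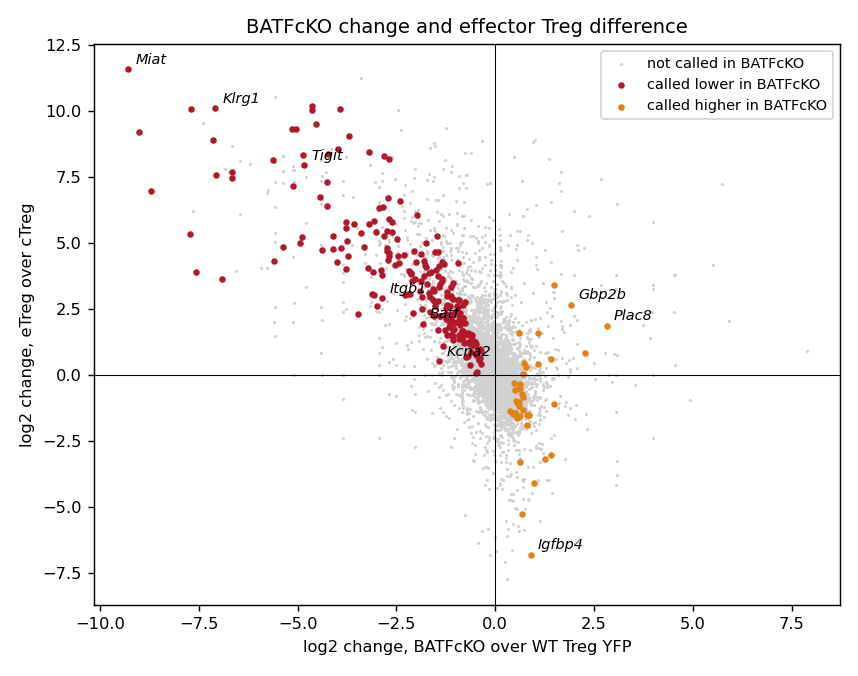
The log2 change of BATFcKO over WT Treg YFP (horizontal axis) is plotted against the log2 difference of eTreg over cTreg (vertical axis), 1 point a gene. All 210 genes called lower in BATFcKO lie above 0 on the vertical axis, whereas the 39 called higher lie on both sides, with Igfbp4 far below 0 and Gbp2b and Plac8 above it.

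Deletion restricted to Foxp3-expressing cells was set beside the germline deletion, in which every cell of the mouse lacks BATF. The 2 comparisons share no library, but both came from the same fit. In germline BATFKO Treg 329 genes were called (2.69%), 201 lower (1.64%) and 128 higher (1.05%). Of the lower genes, 102 were called in both, which is 48.6% of the BATFcKO list and 50.7% of the germline list. Of the higher genes, 20 were called in both, 51.3% of the BATFcKO list and 15.6% of the germline list. No gene was called in opposite directions. Of the 210 genes lower in BATFcKO, 203 had negative changes in the germline deletion (median -1.06), and of the 39 higher genes 37 had positive ones (median 0.48). Over the 101 lower genes called in both other than Batf, the median change was -1.995 in BATFcKO and -1.57 in germline BATFKO, and over the 20 higher genes it was 0.83 in BATFcKO and 1.38 in germline BATFKO.

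Several genes described above were called in both deletions. Itgb1 read 61.6 and 45.7 CPM in germline BATFKO Treg, against 453 and 398 CPM in WT Treg (-2.98), close to its change of -2.86 in BATFcKO. Itgae changed by -2.94 in germline BATFKO and by -2.47 in BATFcKO, and Ccr4 by -3.69 and -3.33. Rgs9, a regulator of G protein signalling, changed by -2.51 in germline BATFKO and by -2.20 in BATFcKO. Among the gains, Plac8 changed by 3.34 in germline BATFKO and 2.82 in BATFcKO, Gbp2b by 2.62 and 1.91, and Xdh by 1.27 and 0.73. Sidt1, a transmembrane protein linked to RNA uptake, changed by 0.48 in germline BATFKO and 0.59 in BATFcKO, where its call was lost in the 10-library fit (edgeR adjusted p = 0.0909). In the interferon response list 8 of 25 genes were called higher in germline BATFKO (median 0.68) and 1 in BATFcKO (median 0.18). In the stromal list these counts were 4 of 10 and 0 of 10. Over all tested genes 1.05% were called higher in germline BATFKO and 0.319% in BATFcKO, so the germline comparison had more higher calls in general.

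**Figure D5:**
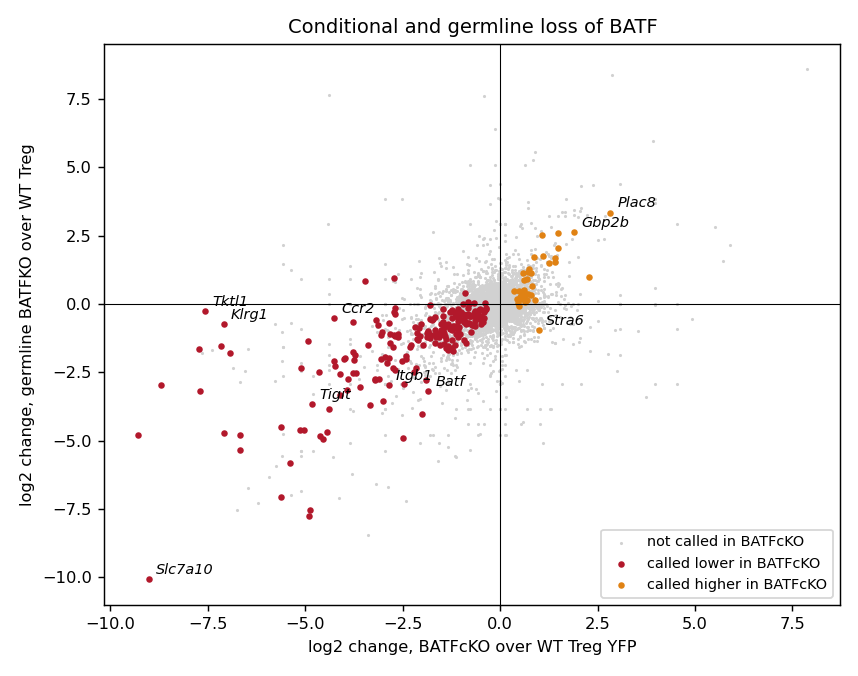
The log2 change of BATFcKO over WT Treg YFP (horizontal axis) is plotted against that of germline BATFKO over WT Treg (vertical axis), 1 point a gene. Of the 210 genes called lower in BATFcKO, 203 lie below 0 on both axes, and Klrg1, Ccr2 and Tktl1 lie near 0 on the vertical axis.

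A contrast of the 2 effects within the same edgeR model called 0 genes. At an unadjusted p below 0.05 it held 632 genes (5.17%), and DESeq2 called 10. The smallest adjusted p, 0.157, was that of Klrg1. It read 16.2 and 3.83 CPM in germline BATFKO Treg, against 18.8 and 15.7 CPM in WT Treg (-0.74), where BATFcKO had 0.345 and 0 CPM, against 20.4 and 28.0 CPM in WT. The 2 germline libraries thus differed from each other by more than 4-fold. Itga2 changed by -3.13 in BATFcKO and -0.76 in germline BATFKO, Ccr2 by -4.26 and -0.52, Il9r by -2.72 and -0.29, and S100a4 by -3.99 and -1.99, and none of these differences was called (edgeR adjusted p 0.245 to 0.339). Stra6, higher in BATFcKO by 0.99, changed by -0.97 in germline BATFKO (difference 1.95 ± 0.36, edgeR adjusted p = 0.174). Without germline BATFKO library 2 the contrast called 19 genes, and without WT Treg library 2 it called 1. The kind of deletion, the reporter and the set in which the cells were sorted differ together between the 2 comparisons and cannot be told apart.

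The floxed locus lies among other genes of chromosome 12, and 51 tested genes within 2 Mb of Batf other than Batf itself were examined for changes. The edgeR test called 0 of these, with 1 at an unadjusted p below 0.05, DESeq2 called 1, and 2.04% were called by edgeR over all tested genes. The neighbour Jdp2, an AP-1 family gene 46.8 kb from Batf that was named after its values were seen, had 0.517 and 0.322 CPM in BATFcKO, against 2.43 and 3.35 CPM in WT (-2.76 ± 0.71, edgeR adjusted p = 0.0504), just outside the threshold. Of the 24 AP-1, bZIP and IRF factors other than Batf in their list, Cebpa alone was called, and the list median was 0.24.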

How the data were processed

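Per the labels, poly(A) RNA was sequenced from freshly sorted CD4+ T cells, with RNA extracted by Isogen, and libraries came from the NEBNext Ultra Directional or the NEBNext UltraII kit. The authors deposited raw read counts per gene symbol, 1 column per library, for 24411 symbols. Per the submitters' processing notes reads were aligned to mm10 with STAR 2.6.1c. The counting tool, annotation and strand setting are not given in the sources used here, so values of genes that overlap on opposite strands, and of close paralogs such as the Gbp and Klr genes, are uncertain. In addition, 4 columns whose names fit no label stayed unused.

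Analysis used edgeR 4.0.16 under R 4.3.3. The edgeR expression filter kept 12227 genes. After TMM scaling, all 26 libraries (13 groups of 2) entered a robust quasi-likelihood fit with a coefficient per group and 13 residual degrees of freedom. Contrasts of that model gave each comparison. The SE of a log2 change is approximate, computed from the F statistic of that change. On simulated data for 12142 genes the test recovered 88% of 100 genes changed by 1 and 100% of 100 genes changed by 2 on the log2 scale, with 8 false calls. These figures hold for the simulated counts alone. They do not give the recovery or the error rate in the real libraries, least of all for genes with few reads. The chi-square over its degrees of freedom between libraries was 6.81 within BATFcKO and 8.25 within WT, and they were kept as separate replicates. A group with 0 reads is given a floor of 3 counts over the group, and 1 to 3 reads a ratio with its 95% exact interval.

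Batf, Foxp3, the 12 called genes with the largest change in each direction (at least 5 CPM in the higher group, groups not overlapping, no predicted genes), called members of 24 gene lists and genes called in both BATF deletions are named by rule, and a few genes are not reported here. The comparison, the members and the lists were chosen with earlier results of these data known, so counts over them are not independent evidence. Positions are whole gene spans from GENCODE M21 on mm10, and promoters are from RefSeq on GRCm38.p6, for 9339 tested genes. Alternatives were DESeq2 1.42.0, DESeq2 size factors, no low-count filter, fits of fewer libraries, a replicate block, a model that is not robust and leaving out single libraries.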

Additional observations from a re-analysis of the deposited data

How the results depend on the processing

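No named gene that was called changed direction under the alternatives run, and the other called genes were followed only as counts. The calls of 39 higher and 210 lower genes were 83 and 285 with DESeq2 1.42.0, 68 and 290 with the 4 YFP libraries alone, and 3 and 49 with the 10 libraries of the BATF experiments, and the cause was not tested. Leaving out single YFP libraries gave 7 to 17 higher and 62 to 146 lower calls, of which 6 to 16 and 61 to 130 were among the original ones. Effector Treg genes called lower, 22 at first, were 12 with the 10 libraries and 15 to 18 in the fits that left 1 library out. Naive and central genes called higher, 3 at first, were 5 with DESeq2, 0 with the 10 libraries, and 0 to 2 with 1 library left out. The contrast of conditional and germline effects, with 0 calls, gave 10 with DESeq2, 6 with no filter on low counts, and 0 to 19 with 1 library left out. Same-numbered libraries deviated together, with a correlation of 0.464 in the YFP set (9526 genes) and 0.7765 in the germline set, but each set holds 2 numbers and the labels state no pairing. With the replicate number as a block the model called 37 higher and 208 lower genes (35 and 195 of the original ones), and the contrast of effects called 81. Slc43a1 (edgeR adjusted p 0.0505) and Wnt3 (0.0556) lost their calls under the block. A lone sample left in a group is assumed to vary like the other groups. At 5790232 to 6813077 counts per library, transcripts below about 1 CPM rest on few reads.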
